A study of Mus musculus with 3 samples.

Results

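Genes of prostaglandin D2 and prostaglandin E2 metabolism, 10 in all, were followed in healing mouse skin wounds, and were chosen by symbol for their part in synthesis (Ptgs1, Ptgs2, Ptges, Ptgds, Hpgds), breakdown (Hpgd) and reception (Ptgdr, Ptger2, Ptger3, Ptger4). Of these 10, 9 were named by the platform annotation, among 19938 named genes in all, and each of the 9 was measured by 1 probe set. The remaining member, Ptgs1, which encodes the constitutive cyclooxygenase, was not listed by the annotation and was not analysed here.

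All samples came from C57Bl/6 mice, an inbred laboratory strain, aged 6 weeks, whose back skin had been excised through its full thickness over 1.5 cm2. By their labels the groups differ in the time of collection, which was day 10, day 12 or day 14 after wounding. Dermis with any epidermis that had grown over it was taken, avoiding the unwounded skin and follicles at the margin, and tissue of 3 mice was pooled into 1 array for each day. No mutant, drug or unwounded skin entered these groups, so every comparison is between healing wounds of different ages. With 1 array per day there is no replicate error and no test was possible, so the small number of arrays limits the precision of each difference. Time also cannot be told apart from the pool of mice or the array.

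Prostaglandins are lipid mediators made from arachidonic acid, which phospholipases release from membranes. A cyclooxygenase, encoded by Ptgs1 or the inducible Ptgs2, turns arachidonic acid into prostaglandin H2, from which terminal synthases make prostaglandin E2, prostaglandin D2, prostaglandin F2α, prostacyclin or thromboxane. In skin, prostaglandin E2 takes part in inflammation, vessel dilation and keratinocyte proliferation, and prostaglandin D2 is known as an inhibitor of hair growth and of the new hair follicles that form in large mouse wounds.

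The values are log2 expression per probe set. Keratin genes of the basal epidermis (Krt5 and Krt14) and collagen genes of the dermis (Col1a1 and Col3a1) were above the level filter on all 3 days, so the defining markers of the labelled tissue were present. To pass this filter, a gene's maximum over the days had to reach the median of such maxima, 8.36, as 9969 genes did. Array medians over all 35556 probe sets were between 7.53 and 7.55. Among 472 genes above the filter that had exactly 2 probe sets, the day-to-day difference of one probe set departed from that of the other by under 0.37 in 95% of genes for day 12 against day 10, by under 0.25 for day 14 against day 12 and by under 0.43 for day 14 against day 10. These limits describe disagreement between probe sets only, since the spread between mice was not measured.

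Among the 9 measured members, Ptgs2, the inducible cyclooxygenase gene, was the single gene that differed by 2-fold or more between any days. It was highest on day 12 and lowest on day 14. The genes that act after it in prostaglandin E2 and D2 synthesis, and the receptor genes, differed by far less. The breakdown gene Hpgd was slightly higher at each later day.

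**Figure D1:**
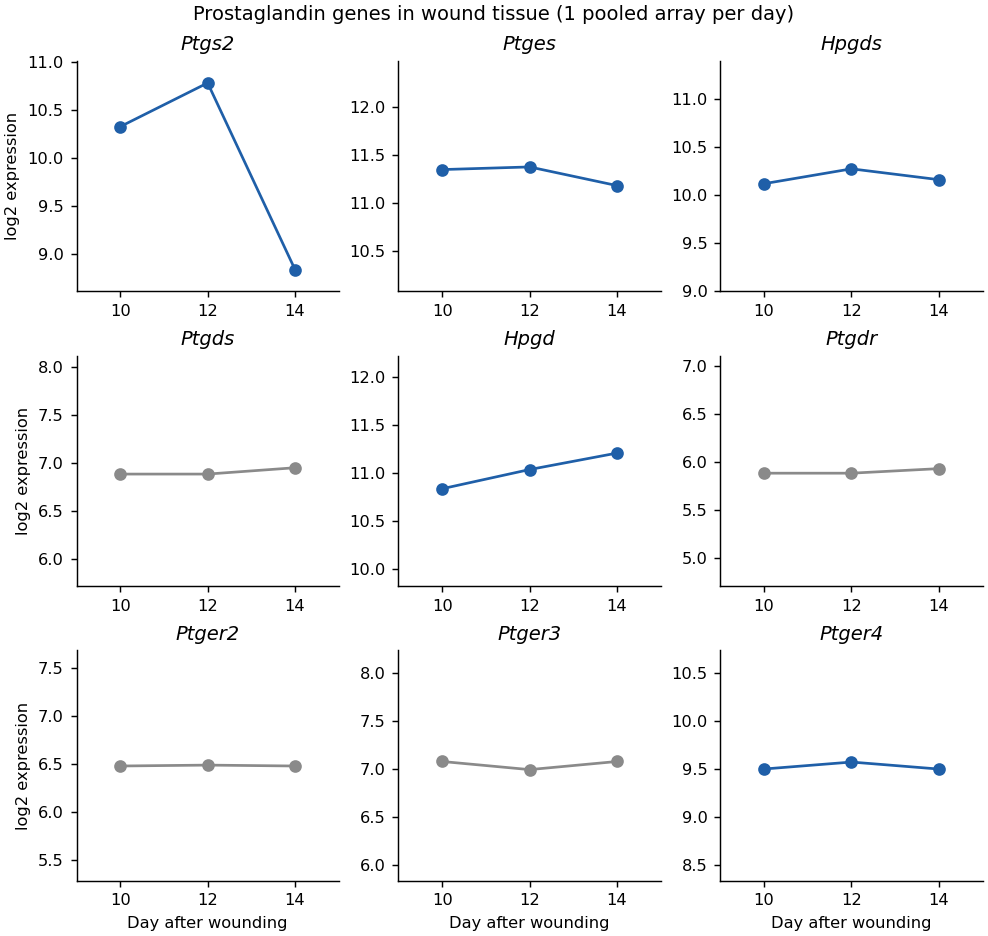
Log2 expression of the 9 measured members (vertical axes, each spanning the same number of log2 units around that gene's own values) against the day after wounding. Each point is 1 array of tissue pooled from 3 mice, blue marks the 5 members above the level filter of 8.36 and grey the 4 below it. Ptgs2 drops from 10.78 on day 12 to 8.83 on day 14, while no other member moves by more than 0.37 between any pair of days.

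Ptgs2 (probe set 10350516) stood at 10.32 on day 10, 10.78 on day 12 and 8.83 on day 14. Day 12 was thus somewhat above day 10, and day 14 was well below both. Against day 12, Ptgs2 was 3.85-fold lower on day 14, a log2 difference of −1.94. Against day 10 it was 2.81-fold lower on day 14, a difference of −1.49. Between day 10 and day 12 it was 1.37-fold higher on the later day, a difference of 0.46. All 3 differences were larger than the limits of disagreement between probe sets given above.

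Set against the other genes, the decrease of Ptgs2 between day 12 and day 14 was among the largest on the arrays. Counting Ptgs2 itself, 6 of 9969 genes were lower by at least as much, and the other 5 were Cxcl3, Mmp8, Cxcl2, Ppbp and Trem1, which encode neutrophil-attracting chemokines, the neutrophil collagenase, a platelet chemokine and a myeloid receptor. Between day 10 and day 14, 19 genes were lower by at least as much as Ptgs2, Ptgs2 included. The increase from day 10 to day 12 was less unusual, since 595 genes (5.97%) were higher by at least as much.

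The proximal promoters of Ptgs2 and Ptges are shown because both genes serve prostaglandin E2 synthesis while their transcripts differed between days by unlike amounts. The sequences are from RefSeq (GRCm38.p6), in which all 10 members had a promoter entry, and each runs 5′ to 3′ on the gene's strand over the 250 bases before the annotated start, with 20 bases after the start added for Ptgs2. Capitals mark matches, on either strand, to any of 8 motifs. TGACGTCA is the cyclic AMP response element (CRE), and TGACG is its core as bound by CREB and related factors. CACGTG is the E-box, bound by basic helix-loop-helix factors such as USF. TTNNGNAA stands for the element of the C/EBP family of leucine zipper factors. TGANTCA is the AP-1 element, bound by the Fos and Jun proteins of immediate early responses. GGGCGG is the GC box of SP1 and related zinc finger factors. TATAAA is the TATA box of core promoters, and the loose NF-kB pattern was GGG, any 5 bases and CC.
Ptgs2, chr1:150099781-150100030, plus strand: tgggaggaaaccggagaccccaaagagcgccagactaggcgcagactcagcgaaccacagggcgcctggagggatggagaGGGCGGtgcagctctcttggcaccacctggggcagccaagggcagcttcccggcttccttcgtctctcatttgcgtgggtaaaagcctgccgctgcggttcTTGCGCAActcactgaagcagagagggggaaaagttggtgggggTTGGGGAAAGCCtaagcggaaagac
Ptgs2 after the start, chr1:150100037-150100056, plus strand: accactaCGTCACGTGgagt
Ptges, chr2:30903298-30903547, minus strand: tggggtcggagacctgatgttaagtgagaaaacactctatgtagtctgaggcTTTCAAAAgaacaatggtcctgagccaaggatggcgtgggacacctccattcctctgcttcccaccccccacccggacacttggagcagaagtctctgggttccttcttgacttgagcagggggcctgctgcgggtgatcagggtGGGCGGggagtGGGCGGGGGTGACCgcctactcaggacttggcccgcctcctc

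In the Ptgs2 promoter, an E-box at positions 17 to 22 after the start overlapped a CRE core on the opposite strand at positions 14 to 18. C/EBP matches lay at −69 to −62 and at −25 to −18, and the latter overlapped an NF-kB match at −23 to −14. An SP1 match lay at −170 to −165. The Ptges promoter had SP1 matches at −53 to −48 and −42 to −37, of which the second overlapped an NF-kB match at −38 to −29, and a C/EBP match at −198 to −191.

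Over the whole window of 250 bases before to 50 after the start, Ptgs2 was the single member of the 10 with an E-box or a CRE core. These motifs were found in 7.15% and 20.8% of 32851 promoters of the same length. The C/EBP and NF-kB patterns are short or loose and were each present in 7 of 10 members, against 40.7% and 50.8% of all promoters. SP1 was present in 5 of 10 members against 35.7%. AP-1 was present in 1 member (Ptgds) against 7.81%, TATA in 1 (Hpgd) against 13.6%, and the full CRE in 0 of 10 against 1.79%. A match describes letters in this window and does not show binding.

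Ptges encodes microsomal prostaglandin E synthase 1, the inducible terminal enzyme that is often coupled to Ptgs2. It (probe set 10481518) stood at 11.35 on day 10, 11.38 on day 12 and 11.18 on day 14. Values on the first pair of days differed by 0.03, and day 14 was lower than day 12 by a log2 difference of −0.19, or 1.14-fold. This was within the limit of 0.25, and 11.1% of genes above the filter were lower by at least as much. The order of days was the same as for Ptgs2, with day 12 highest and day 14 lowest, while the decrease was much smaller.

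The other prostaglandin E synthase genes were named outside the rule for named genes, after their values had been seen. Ptges2 encodes a second membrane-associated synthase and stood at 8.04, 7.82 and 7.82 on days 10, 12 and 14. It was below the level filter on each day, with exactly equal values on day 12 and day 14. Ptges3, which encodes the cytosolic synthase and Hsp90 co-chaperone p23, stood at 11.19, 11.17 and 11.04 as the mean of 3 probe sets. None of the 3 prostaglandin E synthase genes thus differed by 2-fold between any days.

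Hpgds and Ptgds encode unrelated enzymes that both make prostaglandin D2. Hpgds is the hematopoietic form, known from mast cells and other leukocytes. It (probe set 10545101) stood at 10.12 on day 10, 10.27 on day 12 and 10.16 on day 14. Day 12 was highest, by 0.15 over day 10 and with −0.11 from day 12 to day 14, and day 14 was within 0.04 of day 10.

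Ptgds, the lipocalin-type synthase gene, is known for its expression in brain and in other tissues. It (probe set 10480734) stood at 6.88 on both day 10 and day 12 and at 6.95 on day 14, below the level filter on each day. The sign of its difference between day 14 and day 10, 0.07, depended on the scaling and was −0.001 under quantile normalization. Its equal values on the first pair of days are the kind that the summary of a probe set over few arrays can return, and are no precise measurement of equality.

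Hpgd encodes 15-hydroxyprostaglandin dehydrogenase, the enzyme that starts the inactivation of prostaglandin E2. It (probe set 10571840) stood at 10.83 on day 10, 11.03 on day 12 and 11.20 on day 14. It was the single measured member with a higher value at each later day, by 0.20 and then by 0.17. The difference between day 14 and day 10 was 0.37, or 1.29-fold, and 8.77% of genes above the filter were higher by at least as much. Each of these steps was within the disagreement between probe sets, which was 0.43 for the longest interval.

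Among the prostaglandin E2 receptor genes, Ptger4 was the one above the level filter. Its product, EP4, raises cyclic AMP, as does EP2, the product of Ptger2, whereas EP3, the product of Ptger3, mainly lowers it. Ptger4 (probe set 10427461) stood at 9.50 on day 10, 9.58 on day 12 and 9.50 on day 14. Its values on day 10 and day 14 differed by less than 0.01, and day 12 was 0.07 higher.

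Ptger2 (probe set 10414271) stood at 6.48 on day 10, 6.49 on day 12 and 6.48 on day 14. Ptger3 (probe set 10497079) stood at 7.08, 6.99 and 7.08 on the same days. Both were below the level filter, and both had identical values on day 10 and day 14. Ptger1, the gene of the calcium-mobilising receptor EP1, was named after its values were seen and stood at 7.44 on all 3 days, also below the filter.

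Ptgdr encodes DP1, the prostaglandin D2 receptor that raises cyclic AMP. It (probe set 10419167) stood at 5.89 on both day 10 and day 12 and at 5.93 on day 14, below the lower quartile of genes, which was between 6.30 and 6.35 on these arrays. Ptgdr2, the gene of the second prostaglandin D2 receptor (also called Gpr44 or Crth2), was named after its values were seen and stood at 6.92, 6.87 and 7.07. Neither D2 receptor gene reached the level filter on any day.

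All 4 members below the filter (Ptgds, Ptgdr, Ptger2, Ptger3) had exactly equal values on a pair of days, and 0 of the 5 members above it did. Among all genes the share with equal values on at least 2 days was 73.7% below the filter and 35.6% above it.

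By comparison of days, neither direction held any of the 9 measured members past 2-fold for day 12 against day 10 (0 of 9 higher and 0 of 9 lower), against 1.48% and 0.181% of the 9969 genes above the filter. On day 14 against day 12, 1 of 9 was at least 2-fold lower and 0 at least 2-fold higher, against 0.361% and 0.0301%. On day 14 against day 10, 1 of 9 was at least 2-fold lower and 0 at least 2-fold higher, against 0.913% and 2.24%. Ptgs2 was the member counted in both comparisons with day 14, and these share the day 14 array.

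The medians over the 9 members were 0.03 for day 12 against day 10, −0.01 for day 14 against day 12 and 0.00 for day 14 against day 10, beside 0.00, −0.00 and −0.02 over all genes above the filter. For the first interval 6 members were higher, 1 lower and 2 equal, beside 33.2% of genes above the filter higher and 45.7% lower. Since 4 of the 9 members were below the filter, the shares over all 19938 genes are also given. For this interval they were 25.5% higher and 34.5% lower. For the second 4 were higher and 5 lower, beside 24.9% and 50.3% of genes above the filter, and 32.7% and 30.8% of all genes. The members counted include Ptger2 at 0.01 and −0.01 in these intervals, which changed sign with the scaling. The median of −0.01 also did, being 0.02 under median centring of the arrays. Without Ptgs2, the differences lay between −0.08 and 0.20, between −0.19 and 0.17, and between −0.17 and 0.37 for the 3 comparisons in the same order. Differences beyond the disagreement between probe sets were seen in 1 of 9 members in each comparison, Ptgs2, against 13.9%, 10.2% and 17.4% of genes above the filter. These limits and shares come from genes above the filter, where Ptgs2 was 1 of 5 members. Over the 5 members above the filter the medians were 0.15, −0.11 and −0.001 in the same order. Of these 5, 4 were highest on day 12, beside 12.5% of genes above the filter. That share counts as not highest the 35.6% of genes above the filter with equal values on 2 or 3 days, and none of these 5 had such values. Of the 4, Ptges, Hpgds and Ptger4 exceeded day 10 on day 12 by 0.03, 0.15 and 0.07, within the limit of 0.37. The medians over all 9 members thus lay near the background, while those over these 5 departed from it more in the successive comparisons. These 2 departures, 0.15 and −0.11, were smaller than the limits for a single gene, 0.37 and 0.25. Ptgs2 lay apart from the other members.

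**Figure D2:**
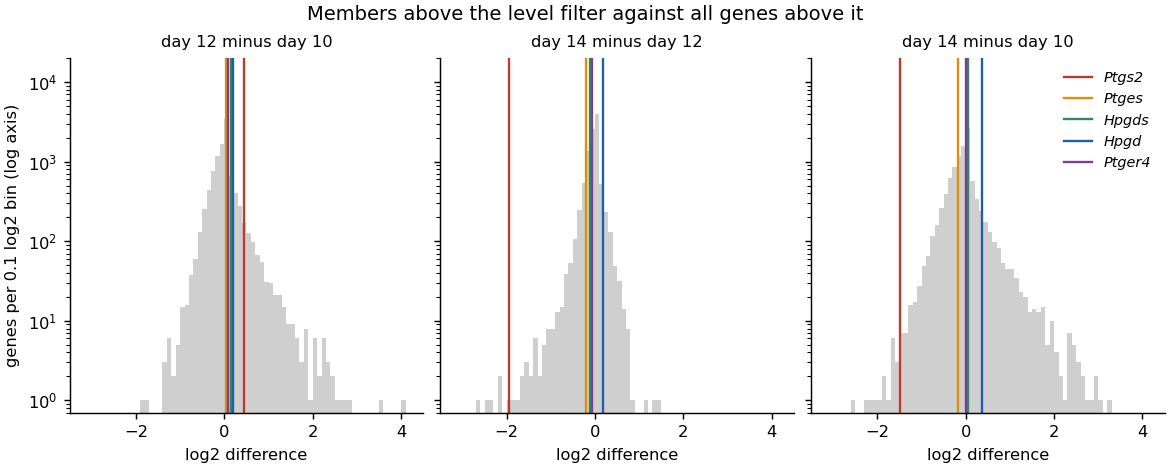
Number of genes above the level filter per bin of log2 difference (vertical log axis) for the 3 pairs of days, over 9969 genes, with the 5 members above the filter as coloured lines. On day 14 against day 12 Ptgs2 lies at −1.94, at the edge of the distribution, and the other 4 lie between −0.19 and 0.17.

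A further 17 genes of prostanoid synthesis, breakdown, transport and reception were listed, of which 16 were measured, and they gave the setting of the members. In both successive comparisons, 0 of 16 passed 2-fold in either direction. On day 14 against day 10, 1 of 16 was at least 2-fold higher and 0 lower. The medians for these comparisons were −0.01, 0.00 and −0.02.

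The gene counted was Akr1c18, an aldo-keto reductase gene whose product inactivates progesterone and can also make prostaglandin F2α. It stood at 9.57 on day 10, 10.42 on day 12 and 10.76 on day 14. It was higher at each later day, by 0.85 and by 0.34, and its day 14 level was 2.28 times that of day 10.

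The other enzymes of this list with the largest ranges differed by less than 2-fold. Prxl2b, which encodes a prostaglandin F synthase of the thioredoxin-like family, stood at 8.86, 8.97 and 9.28 on days 10, 12 and 14. Cbr1, a carbonyl reductase gene whose product can reduce prostaglandin E2 to prostaglandin F2α, stood at 8.91, 8.57 and 8.49. Of these genes tied to prostaglandin F2α, Akr1c18 and Prxl2b were thus highest on day 14 and Cbr1 was lowest then. The Cbr1 differences were −0.34 for day 12 against day 10, −0.08 for day 14 against day 12 and −0.42 for day 14 against day 10. All 3 were within the disagreement between probe sets, as was the Prxl2b difference of 0.42 between day 10 and day 14. A direction for Cbr1 is therefore not resolved.

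Ptgis, the prostacyclin synthase gene, stood at 7.74, 7.92 and 8.13, higher at each later day but below the level filter throughout. Tbxas1, the thromboxane synthase gene, stood at 8.66, 9.01 and 8.63. It was highest on day 12, as Ptgs2 was, and its difference of −0.38 from day 12 to day 14 exceeded the disagreement between probe sets of 0.25. That also held for the differences of 0.34 for Akr1c18 and 0.30 for Prxl2b, so that 3 of 16 genes lay beyond it in this interval, against 10.2% of genes above the filter. In each of the other 2 comparisons 1 of 16 did, Akr1c18, or 6.25% against 13.9% for day 12 against day 10 and 17.4% for day 14 against day 10. Of these 16 genes 11 were above the filter, to which the limits and background shares refer.

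**Figure D3:**
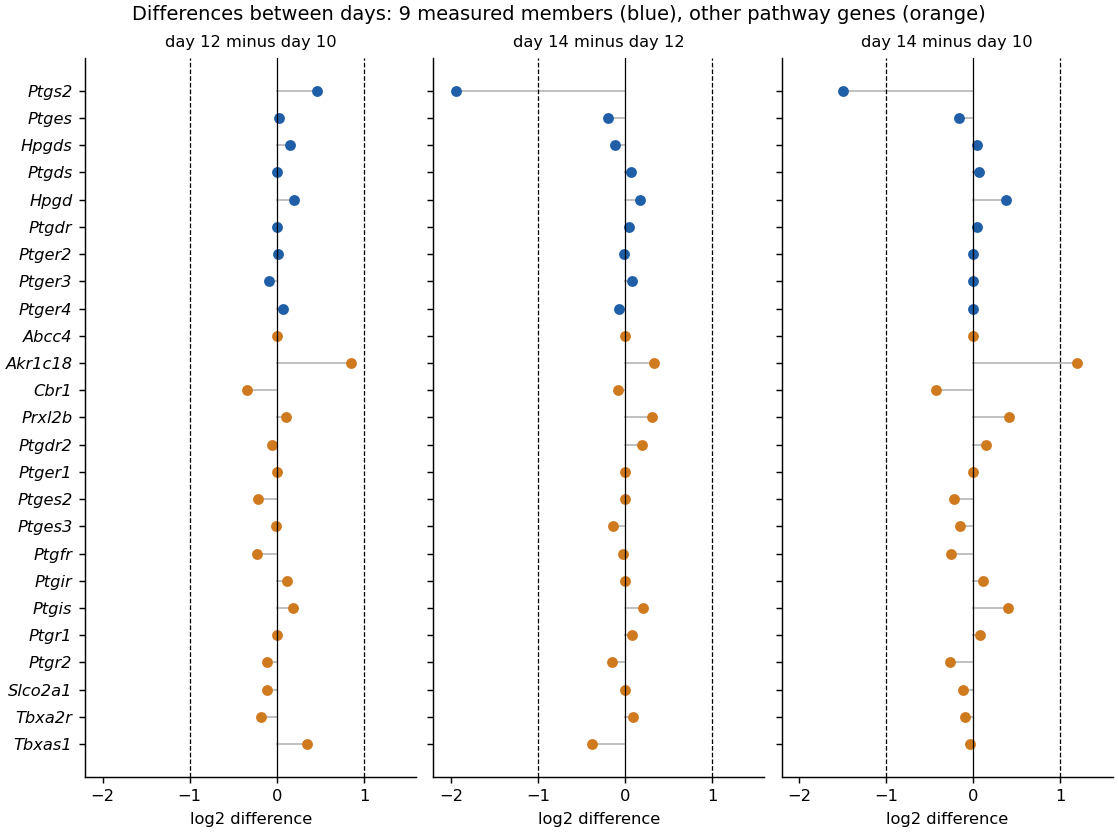
Log2 difference (horizontal axis) of the 9 measured members in blue and the 16 further pathway genes in orange for each pair of days, with dashed lines at 2-fold and 1 array per day. Ptgs2 passes the lower line in both comparisons with day 14 and Akr1c18 passes the upper line on day 14 against day 10.

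Phospholipase A2 genes, whose products can supply arachidonic acid or other free fatty acids, included 17 measured members of a list of 19. Counts past 2-fold were 1 of 17 lower for day 14 against day 12, beside 0.361% of genes above the filter, and 1 of 17 higher for day 14 against day 10, beside 2.24%. The list medians were 0.00, 0.01 and 0.04 for the 3 comparisons. Pla2g4d, a cytosolic phospholipase gene, stood at 8.59 on day 10, 9.20 on day 12 and 7.89 on day 14, and was 2.47-fold lower on day 14 than on day 12. Its highest day was day 12 and its lowest day 14, as for Ptgs2. Pla2g2f, a secreted phospholipase gene of the epidermis, stood at 10.49, 11.35 and 11.66, and Pla2g4f stood at 8.95, 9.63 and 9.69. Pla2g4a, which encodes the cytosolic enzyme best known for releasing arachidonic acid, was named after its values were seen and stood at 9.92, 10.16 and 10.00.

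Genes that induce Ptgs2 in inflamed tissue or are induced with it had their highest value on day 12 in 12 of 15 cases, against 12.5% of all genes above the filter. Of the 15, 5 exceeded 2-fold upward from day 10 to day 12, beside 1.48% of genes above the filter, and 5 exceeded it downward from day 12 to day 14, beside 0.361%. The medians of this list were 0.76, −0.55 and 0.00 for the 3 comparisons, the last being day 14 against day 10. Cxcl3 stood at 7.71, 9.95 and 7.25, Cxcl2 at 8.92, 10.97 and 8.61, and Nos2, the inducible nitric oxide synthase gene, at 7.90, 9.35 and 7.49. Relative to Cxcl3, Cxcl2 and Nos2, the genes of largest range in the list, Ptgs2 had a smaller difference between day 10 and day 12. Its difference between day 10 and day 14 was more negative than theirs. The list was written with earlier results of these arrays known, so its counts are a description.

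By the distance between both successive differences, the 5 genes nearest to Ptgs2 among all genes above the filter were Trem1, Il1b, Mmp10, Lce3a and Saa3. Trem1, the myeloid receptor gene, was nearest at a distance of 0.35 log2 units and stood at 8.38, 9.12 and 6.98. Il1b, the interleukin 1β gene, lay at 0.42 with 10.44, 11.08 and 9.52. Mmp10, the stromelysin 2 gene, lay at 0.43 with 9.68, 9.81 and 8.15. Lce3a, a cornified envelope gene, and Saa3, an acute-phase gene, lay at 0.49 and 0.53. The measure rests on 3 arrays and says nothing of shared control.

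**Figure D4:**
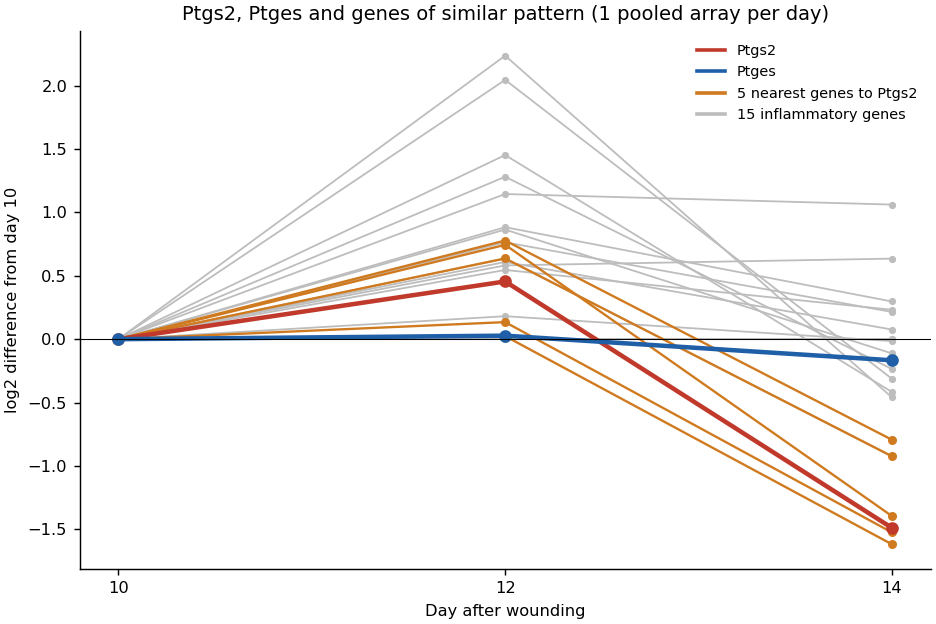
Log2 difference from day 10 (vertical axis) against the day after wounding for Ptgs2 (red), Ptges (blue), the 5 genes nearest to Ptgs2 in pattern (orange) and the list of 15 inflammatory genes (grey), with 1 pooled array per day. Il1b belongs to both the orange and grey sets. Ptgs2 ends at −1.49 on day 14 and Ptges at −0.17.

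Marker lists of leukocytes are given beside the Ptgs2 values. In bulk tissue, fewer cells of a type and less RNA per cell cannot be told apart. Of 14 neutrophil markers, 9 (64.3%) were lower on day 14 than on day 12 and 2 were higher, beside 50.3% lower and 24.9% higher among all genes above the filter, and their summed linear-scale levels were 12009, 11296 and 8772 on days 10, 12 and 14. The neutrophil markers of largest range, Mmp8, Trem1 and Mmp9, differed by −2.42, −2.14 and −0.72 between day 12 and day 14, whereas S100a8 and S100a9, abundant neutrophil transcripts, differed by 0.16 and −0.04. The last of these turned to a value above 0 under another scaling. Ly6g, which defines mouse neutrophils, stood below the lower quartile of genes on all 3 arrays, at 5.92, 5.87 and 5.81.

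Of 14 macrophage and monocyte markers, 13 were lower on day 14 than on day 12 (50.3% of genes above the filter were) and 1 was equal, with summed levels of 37203, 41148 and 34087 on days 10, 12 and 14. In that list Cd14, Arg1 and Fcgr1 differed by −1.37, −1.26 and −0.58, while Adgre1 and Csf1r, which define the lineage, differed by −0.24 and −0.17. Of 6 platelet and megakaryocyte markers, 2 were lower, 3 higher and 1 equal. The 2 lower ones, Ppbp and Pf4, were the only ones above the level filter. The higher ones included Gp5 at 0.03, which turned below 0 under another scaling, as did Ngp of the neutrophil list at 0.02. Ppbp and Pf4, which differed by −2.18 and −0.98, made up most of the summed level of 5814, 8130 and 3795, and Itga2b differed by 0.32. The ratio of day 14 to day 12 was 0.78 for the neutrophil sum, 0.83 for the macrophage sum and 0.47 for the platelet sum, beside the 3.85-fold lower level of Ptgs2. The part of these cells in the Ptgs2 difference was not tested.

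Most mast cell markers differed more than Hpgds between day 10 and day 14. Of 14, 11 were higher on the later day (29.6% of genes above the filter were), 4 of them past 2-fold (2.24%), with summed levels of 3774, 6194 and 7688 on days 10, 12 and 14. Among all genes 34.9% were higher and 1.25% past 2-fold. Of the 14 markers 7 were above the filter, and Mrgprb1 was not. The median difference was 0.08 over these 7 and 0.49 over all 14. Mrgprb1, Mcpt4 and Cpa3 differed by 1.96, 1.92 and 1.68 between day 10 and day 14, while Kit stood at 8.97 on all 3 days and Hpgds differed by 0.04. The 2 markers that were lower, named after their values were seen, were Mcpt2, a mast cell protease gene, at −0.89, and Hdc, the histidine decarboxylase gene, at −0.25. Hdc was highest on day 12, as Hpgds was, with 8.95, 9.37 and 8.70 on days 10, 12 and 14. The part of mast cells in the Hpgds values was not tested. Dendritic and Langerhans cell markers were higher on day 14 than on day 10 in 13 of 13 cases (29.6% of genes above the filter), with summed levels of 15963, 22553 and 22877.

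Of 9 markers of differentiated keratinocytes, 8 were higher on day 14 than on day 10 (again beside 29.6%) and 1 was equal, with summed levels of 36100, 50286 and 55920. Between day 10 and day 14 these moved in the same direction as Hpgd, Akr1c18 and Pla2g2f, as did 10 of 11 sebaceous gland markers, with summed levels of 3616, 10882 and 10743. Of the 11 sebaceous gland markers 5 were above the level filter. From day 12 to day 14, 6 of the 11 were lower and 3 higher, beside 50.3% and 24.9% of genes above the filter, whereas Hpgd, Akr1c18 and Pla2g2f were higher. Fibroblast markers summed to 65546, 64599 and 63295. Myofibroblast and smooth muscle markers were lower on day 14 than on day 12 and than on day 10 in 8 of 8 cases, with summed levels of 21514, 12544 and 9880, the direction of Ptgs2 in both comparisons. Endothelial markers were lower on day 14 than on day 10 in 8 of 10 cases and than on day 12 in 6 of 10, with summed levels of 19046, 15229 and 14122. Among all genes above the filter 53.8% and 50.3% were lower in these comparisons. From day 10 to day 12 both of these sums were lower while Ptgs2 was higher, and their part in the Ptgs2 difference was not tested. The part of epidermal growth in the differences of Hpgd, Akr1c18 and Pla2g2f was not tested.

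**Figure D5:**
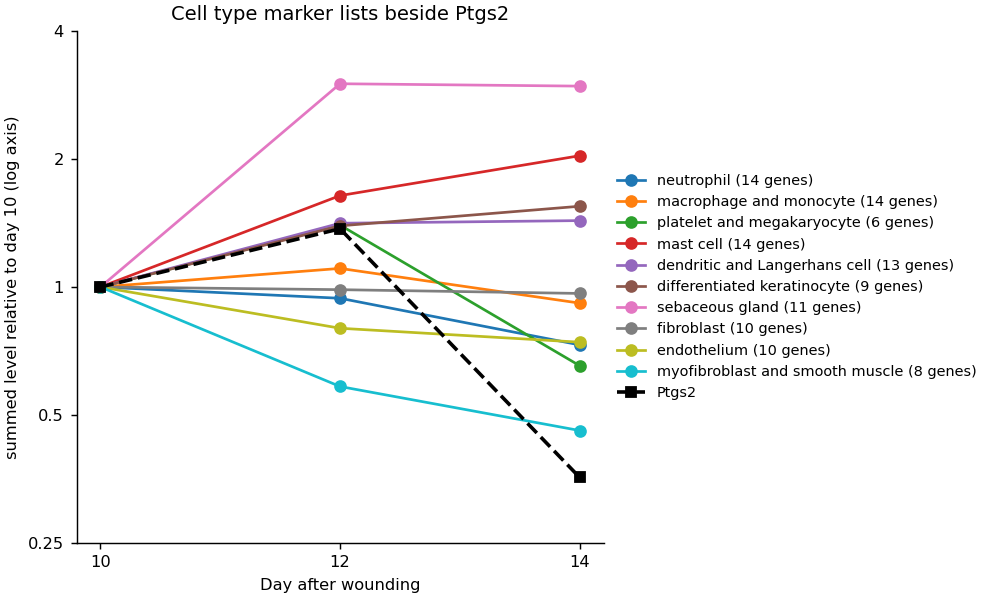
Summed linear-scale level of 10 cell type marker lists relative to day 10 (vertical log axis) against the day after wounding, with Ptgs2 as a dashed black line and 1 pooled array per day. Ptgs2 on day 14 lies below each of the 10 lists, of which myofibroblast and smooth muscle markers are lowest with a ratio of 0.46, followed by platelet and megakaryocyte markers at 0.65.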

How the data were processed

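Total RNA of 3 arrays, 1 per day, was measured, each from 250 ng of RNA of 3 pooled mice, per the labels' protocols. The authors deposited 1 log2 expression value per probe set, and the submitters' processing notes name RMA and Partek 6.6 with no role given. The log2 scale was read from the range of 4.37 to 14.1. Scanner output was not used here, so detection per probe set is unknown.

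Symbols came from the platform annotation. Of 35556 probe sets, 21789 had 1 symbol, 1621 had several and 12146 were not listed. Probe sets with 1 symbol were averaged to 19938 genes. A match by Entrez identifier to RefSeq (GRCm38.p6) covered 21698 probe sets and changed 0 symbols.

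Differences of log2 values between days were counted at 2-fold, with no test. The members and lists were chosen with earlier results of these data known. Named were all members, further pathway genes past 2-fold and the 4 others of largest range. The 3 of largest range were named in the phospholipase, leukotriene, inflammatory, neutrophil, macrophage, platelet and mast cell lists. Other lists are given by counts or sums. Also named were the 5 genes nearest to Ptgs2, leaving out predicted genes, small RNAs, olfactory and vomeronasal receptors and antigen receptor segments. Genes named outside this rule are said to be so, or are markers that define a lineage or tissue. S100a8, S100a9, Gp5, Ngp, Cnn1 and Actg2 were also named outside it. Alternatives were no level filter, median centring, quantile normalization and cyclic loess (limma 3.58.1 in R 4.3.3), the brightest probe set per gene, and 1.5-fold. Counting (Python 3.11.15, pandas 2.3.3) was tested on simulated data.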

Additional observations from a re-analysis of the deposited data

How the results depend on the processing

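The 27 differences of the 9 measured members were recomputed under median centring, quantile normalization, cyclic loess and the brightest probe set per gene, giving 108 values. All 108 stayed within the standard deviation between probe sets of a gene, and the largest shift was 0.07. The Ptgs2 difference between day 12 and day 14 was −1.92, −1.91 and −1.92 under the first 3 settings. Differences of Ptgds, Ptger2 and Ptger4 up to 0.07 in size changed sign with the scaling. The median over the members for day 14 against day 12, −0.01, was 0.02 after centring. Counts of members past the threshold were the same at 1.5-fold, where the background shares were 4.17% higher and 1.64% lower for day 12 against day 10, 0.321% and 1.19% for day 14 against day 12, and 5.27% and 5.19% for day 14 against day 10. With no level filter the 2-fold background shares were 0.787% higher for day 12 against day 10, 0.0552% higher and 0.196% lower for day 14 against day 12, and 1.25% and 0.512% for day 14 against day 10, and the 5 genes nearest to Ptgs2 were the same 5. No replicate could be left out, and no paired analysis was possible because each day had 1 array. What low signal limits most is the reading of Ptgds, Ptgdr, Ptger2 and Ptger3.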

Other observations

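Leukotrienes are the other main products of arachidonic acid in leukocytes, and 7 of 8 listed genes of their synthesis and reception were measured. None of the 7 differed by 2-fold or more between any pair of days. Cysltr1, a receptor gene for cysteinyl leukotrienes, stood at 9.41 on day 10, 9.66 on day 12 and 9.11 on day 14, highest on day 12 and lowest on day 14 as Ptgs2 was. Alox5ap, which encodes the protein that presents arachidonic acid to 5-lipoxygenase, stood at 11.30, 11.40 and 11.02, in the same order. Alox5, the 5-lipoxygenase gene itself, stood at 8.12, 8.50 and 8.59 and was thus highest on day 14. The medians of the list were 0.18, −0.10 and 0.00 for day 12 against day 10, day 14 against day 12 and day 14 against day 10.

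Among the inflammatory genes listed with Ptgs2, Il6 and Cxcl1, chosen after their values were seen, each held the same value on all 3 arrays, 5.62 and 7.57. Both were below the level filter, where 73.7% of genes had equal values on at least 2 days, so these are no precise measurement of equality. Il1a, also chosen so, stood at 9.40, 10.54 and 10.46 and remained on day 14 near its day 12 value, unlike Il1b at 10.44, 11.08 and 9.52.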
